A study of Mus musculus with 4 samples.

Results

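The 37 genes of the mouse mitochondrial genome were followed in bulk RNA sequencing of the semimembranosus, a hamstring muscle of the thigh. They were chosen as every gene whose GENCODE M21 symbol starts with mt-, all of them on chromosome M, and make up 37 of the 55401 genes counted. The group consists of 13 protein-coding, 22 tRNA and 2 rRNA genes, of which 28 lie on the heavy strand and 9 on the light strand (mt-Nd6 and 8 tRNA genes). The mice of all 4 libraries were C57BL/6 at 8 weeks of age, and a ligature tied over a 30-gauge needle had narrowed their left external iliac vein. In the IVS_diosmin group (2 libraries) a daily 40 mg/kg of diosmin, a flavonoid given for venous disease, went into the stomach. The IVS group (2 libraries), with the same iliac vein stenosis, received saline in the same way. Mice without the stenosis were not among the samples. The labels do not say whether replicates are separate animals, so p-values here reflect the spread of these libraries alone, and that spread may be technical.

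Mitochondrial DNA encodes core subunits of the respiratory chain and ATP synthase, together with the rRNAs and tRNAs that translate them inside the organelle. Both strands are transcribed into long precursors, and cutting at the tRNAs frees the mRNAs and rRNAs that lie between them. The heavy strand carries nearly all of the coding genes. Most mitochondrial mRNAs, though not all, carry short poly(A) tails, which lets them pass poly-T selection. Mature tRNAs end in CCA and are shorter than the fragments most RNA libraries keep. Skeletal muscle holds many mitochondria, more in slow than in fast fibres.

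Gene counts ran from 13056650 to 15324354 per library. As markers of the labelled tissue, 8 fast fibre genes summed to 97940 and 101600 TMM-normalised CPM (counts scaled to library size with edgeR's TMM factors) in IVS_diosmin replicates 1 and 2, and to 98520 and 110300 CPM in IVS replicates 1 and 2. Of these 8, 5 had lower values with IVS_diosmin and none fell, while 1 rose. It was Myh1, at 1493 and 1063 CPM with IVS_diosmin and 660.8 and 471.5 CPM with IVS (log2 1.17, edgeR adjusted p = 0.0261). The groups also differed outside the mitochondrial genome. Over all 13533 genes tested 1.17% rose and 1.78% fell (edgeR adjusted p under 0.05). The nuclear rRNA gene CT010467.1 took 1.16% and 0.936% of gene counts with IVS_diosmin and 4.14% and 3.80% with IVS, and Rn7sk, a small nuclear RNA without a poly(A) tail, was at 11.9 and 5.97 CPM against 34.6 and 33.5 CPM. Among the slow fibre markers, Tnni1 had 113.7 and 42.56 CPM with IVS_diosmin and 0.286 and 0.813 CPM with IVS. It passed the filter on low counts only through the IVS_diosmin libraries, so its test follows in part from the filter. Slow fibre markers, Tnni1 included, rose in 8 of 8 cases, and none was at 0. They summed to 2916 and 1205 CPM with IVS_diosmin, against 39.4 and 45.2 CPM with IVS. Without 1 library at a time 7 to 8 of them rose. Of 6 endothelial markers 4 fell (0 to 3 without 1 library at a time), with sums of 179 and 169 CPM against 344 and 355 CPM, also with none at 0. The neutrophil markers (S100a8, S100a9, Ly6g, Mpo and Camp) were at 0 in every library, as were Ucp1, the uncoupling protein that defines brown fat, Nppb among the cardiac markers and Ms4a1 among the lymphocyte markers. None of the cardiac, adipocyte, smooth muscle, fibroblast, macrophage, lymphocyte, erythroid or Schwann cell markers tested passed the threshold. The part of these differences in the mitochondrial values was not tested.

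The tRNA sequences below are shown because the counted and the uncounted tRNA genes differ in where they lie rather than in length. They are GENCODE M21 sequences on GRCm38 (mm10), read 5′ to 3′ on the strand of the gene, and capitals mark bases that another mitochondrial gene also covers. The first 3 are light-strand genes and the last 2 are heavy-strand genes.
mt-Ts1: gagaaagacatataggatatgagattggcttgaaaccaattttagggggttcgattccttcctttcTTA
mt-Te: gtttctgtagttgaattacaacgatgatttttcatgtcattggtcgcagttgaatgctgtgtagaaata
mt-Tn: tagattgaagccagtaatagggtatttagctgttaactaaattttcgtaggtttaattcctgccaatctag
mt-Tt: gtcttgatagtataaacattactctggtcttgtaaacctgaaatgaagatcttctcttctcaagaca
mt-Td: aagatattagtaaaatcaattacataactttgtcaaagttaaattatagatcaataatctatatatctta
In the same order these genes occupy chrM:6870-6938, chrM:14071-14139, chrM:5089-5159, chrM:15289-15355 and chrM:6942-7011. The capitals at the 3′ end of mt-Ts1, the tRNA for serine, lie opposite the last bases of mt-Co1.

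The counts lay on tRNA genes of the light strand and hardly on those of the heavy strand. Of 22 tRNA genes, 9 had at least 10 counts in any library, 7 of the 8 on the light strand and 2 of the 14 on the heavy strand. Light-strand genes held 98.9% of tRNA counts in each IVS_diosmin library, and 98.5% and 99.03% in IVS replicates 1 and 2. The serine tRNA mt-Ts1 had 20406 and 17486 counts with IVS_diosmin and 9323 and 22305 counts with IVS. It lies 3 bases from mt-Td, the heavy-strand tRNA for aspartate, which had 1 count over the 4 libraries. Another 9 heavy-strand tRNA genes had no count at all, which allows up to 3 counts, or 0.172 to 0.244 CPM depending on the library. The 2 heavy-strand genes with counts were mt-Tw (tryptophan) and mt-Tt (threonine), with 197 to 285 and 72 to 126 counts.

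Apart from mt-Tn, the tRNA genes with at least 10 counts were those with the widest stretch between neighbours on their own strand. For each tRNA gene the stretch between the nearest annotated genes on both sides was measured, first on its own strand and then on either strand. A wide stretch can lie all on the same side of a gene, as for mt-Tw, which shares 2 bases with mt-Nd2 on its own strand. This measure was added after the counts had been seen. On the own strand 8 genes had a stretch of 376 bases or more, or one open to the end of the chromosome, and all 8 had at least 10 counts. The other 14 had a stretch of 140 bases or less, and 1 of them, mt-Tn at 105 bases, reached 10 counts. Counting neighbours on either strand, 7 of the 8 genes lay in stretches of 66 to 74 bases, about their own length, which is the room the uncounted genes have too (58 to 100 bases). HTSeq leaves out a read that overlaps more than 1 gene, and under its strand-aware settings a gene on the opposite strand is not counted as an overlap. The strand setting was not given in the sources used here, and the kit is not described as keeping strand. Reads in no annotated feature numbered 1.04 and 1.02 per gene count with IVS_diosmin and 1.08 and 1.03 with IVS. Outside the mitochondrial genome, Tnnc2, fast troponin C, had 118139 and 130619 counts with IVS_diosmin and 265855 and 238455 with IVS, and Ube2c, which lies opposite it, had 110846 and 128580 against 228805 and 217128. Whether the library or the counting kept strand was not tested. Without that, reads of a light-strand gene and of a heavy-strand transcript opposite it cannot be told apart in the values below.

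**Figure D1:**
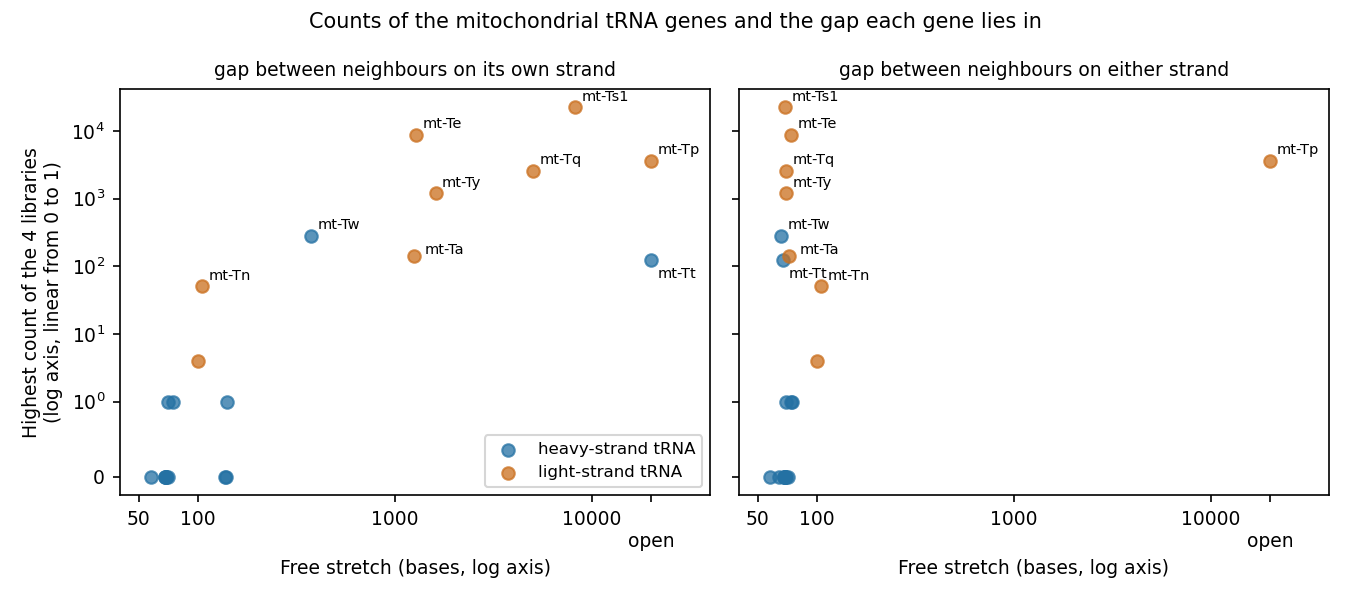
Highest count of the 4 libraries for each of the 22 tRNA genes (log axis, linear from 0 to 1) against the stretch in bases between its nearest neighbours, on its own strand (left) and on either strand (right), with "open" for no further gene before the chromosome's end. On the left the 8 genes in stretches of 376 bases or more all lie at 10 counts or above, and on the right 7 of the 9 counted genes lie within the 58 to 100 bases of the uncounted genes, with mt-Tn at 105 bases and mt-Tp open.

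Together the 37 genes took 45.0% and 40.7% of gene counts with IVS_diosmin and 31.5% and 38.5% with IVS. The groups did not overlap, and their means were 42.9% ± 3.0 with IVS_diosmin and 35% ± 4.9 with IVS (SD, n = 2 each). The difference of 7.85 percentage points was not distinguishable from the spread by an exact permutation test (2-sided p = 0.333, the smallest that 2 libraries against 2 allow). Counting error on each share was at most 0.026 percentage points (the reach of the 95% Wilson interval to either side), so the spread is between libraries. A share falls when other genes take more counts, and in bulk tissue fewer cells of a type and less RNA per cell cannot be told apart.

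Nearly all of these counts lay on the coding genes. The 13 coding genes took 42.7% and 38.4% of gene counts with IVS_diosmin and 29.7% and 36.0% with IVS. The rRNA genes took 2.07% and 2.06% with IVS_diosmin, within the range of 1.70% and 2.29% with IVS. The tRNA genes took 0.225% and 0.236% with IVS_diosmin and 0.138% and 0.240% with IVS, so IVS replicate 1 was low and IVS replicate 2 was the highest of the 4. Within the mitochondrial counts the rRNA share was 4.59% and 5.07% with IVS_diosmin and 5.41% and 5.96% with IVS, without overlap (exact permutation p = 0.333). By complex the make-up of the coding counts varied little: complex I held 37.2% and 38.7% with IVS_diosmin and 39.3% and 36.9% with IVS, and complex IV held 46.9% and 45.5% against 44.7% and 48.0%. Complex V, the ATP synthase, held 1.01% and 1.10% with IVS_diosmin and 1.25% and 1.23% with IVS.

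Per length, mt-Co1, the catalytic subunit of cytochrome c oxidase (chrM:5328-6872), stood highest. It had 129600 and 108200 RPKM (TMM-normalised CPM per kilobase of gene) with IVS_diosmin and 69840 and 112900 RPKM with IVS, and it had the most counts of any gene in all 4 libraries. Next came mt-Nd1, a membrane-arm subunit of complex I, at 67390 and 61060 RPKM against 36690 and 54310, and mt-Cytb, cytochrome b of complex III, at 59600 and 49810 RPKM against 33500 and 46310. The lowest mt-Co1 library was above the highest mt-Nd1 library, whereas mt-Nd1 and mt-Cytb overlapped across libraries, although mt-Nd1 was the higher of the pair within each library. The complex I subunits mt-Nd2 and mt-Nd4 followed at 17250 to 30850 and 17480 to 28040 RPKM and did not separate from each other. mt-Nd6, the light-strand coding gene, ran from 12490 to 18320 RPKM and mt-Nd5 from 9359 to 13540, and mt-Nd5 overlapped the small rRNA mt-Rnr1 (6681 to 10880). At the bottom were mt-Nd3 (652 to 1288 RPKM), mt-Nd4l (508 to 740) and mt-Atp8 (170.5 to 493), all below every other coding gene in each library. RPKM divides by the full gene length, whereas a read that overlaps 2 genes is left out of the counts. Of its 204 bases mt-Atp8 shares 43 with mt-Atp6, and of its 297 bases mt-Nd4l shares 7 with mt-Nd4. The part of these lost reads in the low ranks was not tested.

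**Figure D2:**
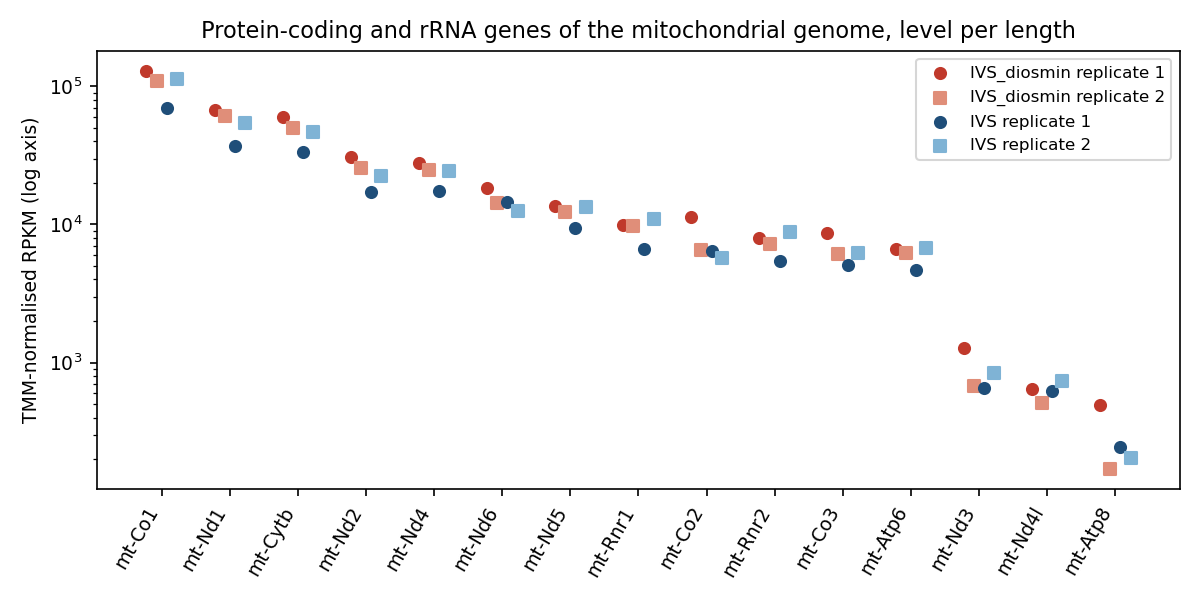
TMM-normalised RPKM (log axis) of the 13 coding and 2 rRNA genes in each library, ordered by their mean. mt-Co1 is at 69840 RPKM or more in every library and mt-Atp8 at 493 RPKM or less, and IVS replicate 1 is the lowest library for most of the highly expressed genes.

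Several of the lower coding genes of this order have near-exact copies in the nuclear genome. Among annotated transcripts outside chromosome M, 11 pseudogenes matched 9 of the 13 coding genes over 50 bases or more at 95% identity or more, and no rRNA or tRNA gene was matched. On chromosome 1, 7 of these pseudogenes lie within a few kilobases, and copies of 99% identity or more covered mt-Co2 (99.6% of its length), mt-Atp6 (99.6%), mt-Co3 (99.9%), mt-Nd3 (99.1%) and mt-Nd4l (98.99%). They covered 63.6% of mt-Nd4 and 31.3% of mt-Co1. The stretch of mt-Atp8 lies between the matches of mt-Co2 and mt-Atp6, and no annotated transcript matched it over 50 bases or more. Sequence outside annotated transcripts was not searched, so whether mt-Atp8 has a copy there was not tested. A read that fits both places is set aside by the counting as aligned to more than 1 place, a class that held 45.6% and 43.6% of all reads with IVS_diosmin and 37.7% and 38.8% with IVS. Levels of the copied genes are therefore uncertain, and per kilobase mt-Co1 exceeded mt-Co2, a fellow subunit of complex IV, by 11.4-fold and 16.4-fold with IVS_diosmin and by 10.9-fold and 19.7-fold with IVS.

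The copies themselves held reads. Together the 11 pseudogenes had 123687 and 138253 counts with IVS_diosmin and 105924 and 118554 counts with IVS. Gm28437, the copy of mt-Co3 (mm10 chromosome 1, 24613189 to 24613971), had 24648 and 36869 counts against 25188 and 41990, while mt-Co3 itself had 88938 and 68720 against 70043 and 59549. The closest to the threshold was Gm10222, the copy of mt-Nd4l, at 124 and 132 CPM with IVS_diosmin and 57.4 and 81.3 CPM with IVS (log2 0.89 ± 0.22 SE, edgeR adjusted p = 0.0517). The member mt-Nd4l leaned the other way, at 190.8 and 150.7 CPM against 185.5 and 219.9 CPM (log2 -0.25 ± 0.21, adjusted p = 0.629). With the chromosome 1 copies added to their members, an alternative chosen after seeing the data, mt-Nd4l turned direction, to log2 0.14 (adjusted p = 0.812). Of the other 10 copies none passed the threshold. Gm10222 passed with upper quartile scaling (0.0477), with scaling from nuclear genes (0.0487), with no filter on low counts (0.0037) and with DESeq2 (0.00528). With no filter 2 copies rose, and none passed when any 1 library was removed.

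**Figure D3:**
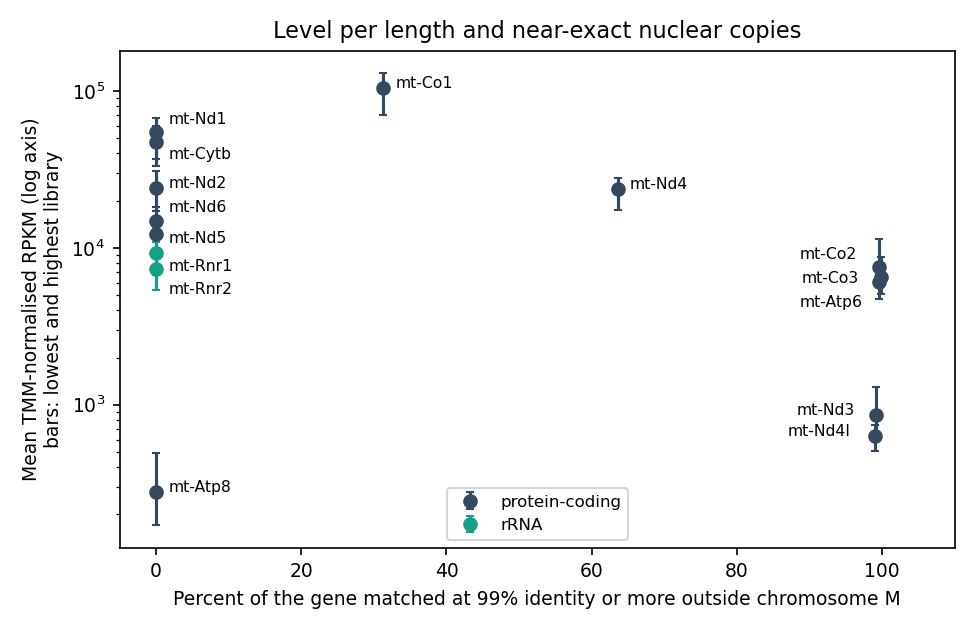
Mean TMM-normalised RPKM over the 4 libraries (log axis; bars reach the lowest and highest library) of the 13 coding and 2 rRNA genes against the percent of their length matched at 99% identity or more by an annotated transcript outside chromosome M. The 5 genes covered almost whole lie below mt-Nd1, mt-Cytb, mt-Nd2, mt-Nd5 and mt-Nd6, which have no such copy. However, mt-Rnr2 and mt-Atp8 are low without one, and mt-Co1 and mt-Nd4, covered in part, are among the high genes. Reads over the 43 bases that mt-Atp8 shares with mt-Atp6 are left out of its count.

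The comparison of the groups asks how mitochondrial transcripts differ when mice with the stenosis receive diosmin. Enough counts for the test remained in 24 of the 37 genes: all coding and rRNA genes and 9 tRNA genes. Of these 24, 1 passed the threshold (edgeR quasi-likelihood test, Benjamini-Hochberg adjusted p under 0.05). It was mt-Tn, which passed the filter on low counts only through the IVS_diosmin libraries, where it was high, so that its test follows in part from the filter. None of the other 23 passed. Over all 13533 genes tested 2.96% passed, 1.17% higher and 1.78% lower. Higher values with IVS_diosmin were seen in 23 of 24 (mt-Tt turned to -0.022 without a scaling factor), with a median log2 fold change of 0.40, against 0.01 over all genes tested. The median of the 13 coding genes was 0.39 with 12 of them higher, and it was 0.12 with 10 higher without IVS_diosmin replicate 1 and 0.24 with 10 higher without IVS replicate 1. The CPM of the groups did not overlap in 9 of the 24, all higher with IVS_diosmin, where 23.4% of all genes tested were higher without overlap and 24.1% lower. At an unadjusted p under 0.05 there were 5 of 24, and 16.8% of all genes tested.

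None of the 13 coding genes passed the threshold with edgeR or with DESeq2 after adjustment. At an unadjusted p under 0.05 there were 2 coding genes with edgeR. Of all 24 members, 5 were under it with edgeR and 8 with DESeq2. The share of all genes tested was 16.8% with edgeR and was not counted with DESeq2. In complex I, mt-Nd2 had 32030 and 26730 CPM with IVS_diosmin and 17900 and 23170 CPM with IVS, without overlap (log2 0.52 ± 0.22, adjusted p = 0.259). Likewise mt-Nd1 had 64490 and 58430 CPM against 35120 and 51970 CPM (log2 0.50 ± 0.23, adjusted p = 0.309). In mt-Nd4 the lower IVS_diosmin library was just above the higher IVS library, with 38650 and 34340 CPM against 24090 and 33850 CPM (log2 0.33 ± 0.23). In all 3, IVS replicate 1 was the low library. The values of mt-Nd5 overlapped, at 24710 and 22580 CPM against 17070 and 24560 CPM (log2 0.18 ± 0.23), as did those of mt-Nd3, at 448 and 236 CPM against 227 and 292 CPM (log2 0.40 ± 0.29). On the light strand mt-Nd6 had 9506 and 7465 CPM with IVS_diosmin and 7528 and 6483 CPM with IVS (log2 0.28 ± 0.22). It made up 2.08% and 1.93% of coding counts with IVS_diosmin, between the 2.90% and 1.70% of the IVS libraries (exact permutation p = 1.000).

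In complex III, mt-Cytb had 68180 and 56980 CPM with IVS_diosmin and 38320 and 52980 CPM with IVS, without overlap (log2 0.46 ± 0.23, adjusted p = 0.347). In complex IV, mt-Co1 had 200200 and 167200 CPM with IVS_diosmin and 107900 and 174500 CPM with IVS, so that IVS replicate 2 lay inside the IVS_diosmin range (log2 0.38 ± 0.25, adjusted p = 0.501). Its partner mt-Co2, the subunit that takes electrons from cytochrome c, had 7783 and 4503 CPM against 4364 and 3924 CPM (log2 0.57 ± 0.26, adjusted p = 0.286). Here IVS_diosmin replicate 1 stood apart, and it did so in mt-Co3 as well, at 6857 and 4771 CPM against 4005 and 4839 CPM (log2 0.39 ± 0.23).

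The ATP synthase genes share sequence with each other. The 3′ end of mt-Atp8 (chrM:7766-7969) is also the start of mt-Atp6 (chrM:7927-8607), and the 43 capitals below mark the shared bases, where a read overlaps both genes.
mt-Atp8: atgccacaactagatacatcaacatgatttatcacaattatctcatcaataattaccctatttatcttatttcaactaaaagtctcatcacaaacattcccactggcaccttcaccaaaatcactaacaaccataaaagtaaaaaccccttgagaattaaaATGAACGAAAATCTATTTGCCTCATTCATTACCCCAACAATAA
For mt-Atp8, a small subunit of the membrane part, the levels were 100.5 and 34.8 CPM with IVS_diosmin and 50.1 and 41.9 CPM with IVS. IVS_diosmin replicate 1 was the highest and replicate 2 the lowest of the 4 (log2 0.55 ± 0.49, adjusted p = 0.661). Without IVS_diosmin replicate 2 its fitted log2 value was 1.11 (adjusted p = 0.0315), and without IVS_diosmin replicate 1 it was -0.40 (adjusted p = 0.547). For mt-Atp6, which forms the proton path of the enzyme, the levels were 4524 and 4214 CPM with IVS_diosmin and 3204 and 4632 CPM with IVS (log2 0.16 ± 0.23, adjusted p = 0.799).

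The rRNA genes, whose products form the mitochondrial ribosome, did not differ beyond the spread. mt-Rnr1 had 9500 and 9371 CPM with IVS_diosmin and 6381 and 10390 CPM with IVS (log2 0.17 ± 0.24, adjusted p = 0.798). mt-Rnr2 had 12630 and 11460 CPM with IVS_diosmin and 8549 and 13950 CPM with IVS (log2 0.10 ± 0.25, adjusted p = 0.893). In both, the IVS libraries enclosed the IVS_diosmin libraries. Both genes turned direction without IVS replicate 1, to log2 fold changes of -0.14 and -0.21 with adjusted p of 0.836 and 0.730.

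Among the tRNA genes, mt-Tn, the tRNA for asparagine, had few reads and entered the test only through its IVS_diosmin values, so its fit is given as a description. It had 11 and 51 counts with IVS_diosmin and 2 and 1 counts with IVS, a ratio of 22.5 after scaling (95% exact Clopper-Pearson interval 7.35 to 112, counting error only). The fit gave 4.35 ± 1.03 on the log2 scale (adjusted p = 0.0413). That p missed the threshold without IVS_diosmin replicate 1 (0.0961), without IVS replicate 1 (0.104) and without IVS replicate 2 (0.224), and the gene was below the count filter without IVS_diosmin replicate 2. Most of its reads came from IVS_diosmin replicate 2. Its neighbour mt-Ta, the tRNA for alanine, had 143 and 128 counts with IVS_diosmin and 86 and 45 counts with IVS, without overlap (log2 1.20 ± 0.33, adjusted p = 0.0726). The proline tRNA mt-Tp had 245 and 253 CPM with IVS_diosmin and 174 and 198 CPM with IVS (log2 0.42 ± 0.20, adjusted p = 0.314), and mt-Tw had 21.97 and 18.47 CPM against 11.26 and 17.96 CPM (log2 0.47 ± 0.26).

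The other tRNA genes overlapped between the groups. mt-Ts1 was at 1573 and 1214 CPM with IVS_diosmin and 533 and 1812 CPM with IVS (log2 0.25 ± 0.59), with the IVS libraries at both ends. mt-Te (glutamate) had 4819 and 8834 counts with IVS_diosmin and 4989 and 4618 with IVS, with IVS_diosmin replicate 2 alone high (log2 0.58 ± 0.26, adjusted p = 0.283). mt-Tq (glutamine) had 1515 and 2495 counts with IVS_diosmin and 2593 and 691 with IVS (log2 0.50 ± 0.47). Without IVS replicate 1 it passed the threshold (log2 1.37, adjusted p = 0.0340), and without IVS replicate 2 its direction turned (log2 -0.04, adjusted p = 0.981). mt-Ty (tyrosine) had 864 and 1221 counts against 721 and 982, and mt-Tt had 72 and 126 against 118 and 83.

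**Figure D4:**
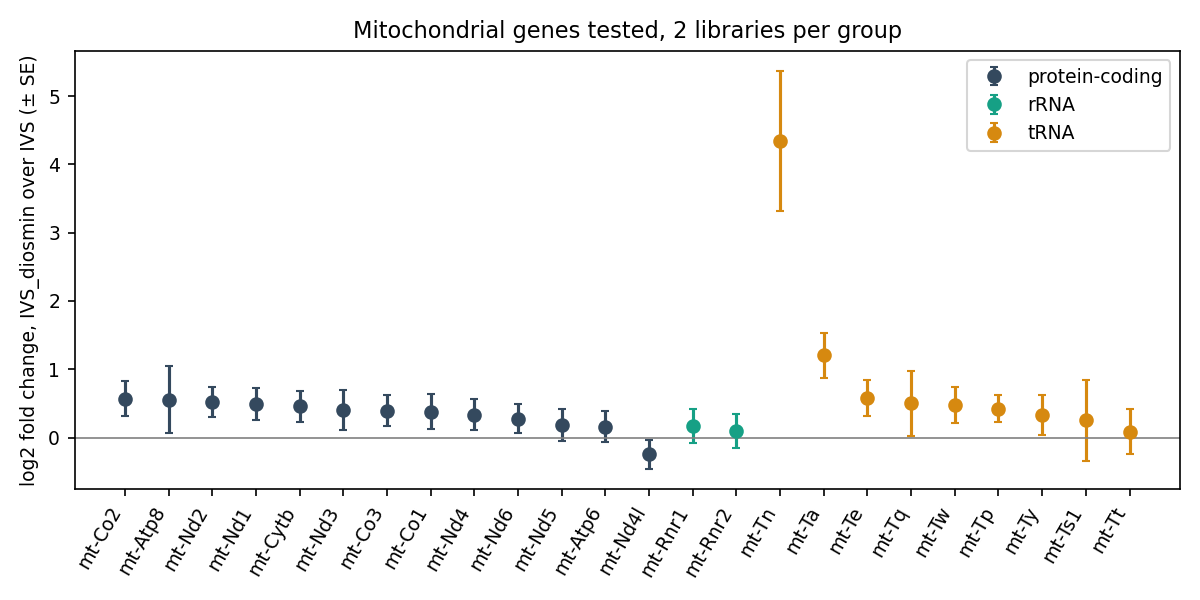
Log2 fold change of IVS_diosmin over IVS with its standard error (2 libraries per group) for the 24 mitochondrial genes tested, by class. mt-Nd4l lies below 0 at -0.25 (0.14 with its copy added) and the other 23 above it (mt-Tt at -0.022 without a scaling factor), and mt-Tn, with 3 counts over the IVS libraries, reaches 4.35.

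Nuclear genes of the same complexes leaned the other way. Over all 13533 genes tested 6699 had lower values with IVS_diosmin and 1.78% fell. In complex I, 36 of 37 nuclear subunits had lower values with IVS_diosmin and 2 fell, Ndufb6 (log2 -0.98, adjusted p = 0.0262) and Ndufb3 (log2 -0.93, adjusted p = 0.0359), with a median of -0.42 against 0.33 for the 7 mitochondrial subunits. In complex IV all 14 were lower and 3 fell: Ndufa4 (log2 -0.92), Cox6a1 (log2 -1.12) and Cox5a (log2 -0.83). Their median was -0.54, against 0.39 for mt-Co1, mt-Co2 and mt-Co3. In complex V 14 of 16 were lower and 1 fell, Atp5g3, a ring subunit (log2 -0.95, adjusted p = 0.0282), with a median of -0.28 against 0.36. In complex III 8 of 9 were lower and none passed (Uqcrq, log2 -0.65, adjusted p = 0.131). Complex II, which is encoded in the nucleus alone, had 1 of 4 lower and none passed (Sdha, the flavin subunit, log2 0.49, adjusted p = 0.237). The number that fell depended on the method. In complex I it was 9 with DESeq2 and 8 with no filter on low counts. In complex IV it was 5 and 4 under these settings, and in complex V 3 and 2, while complex III had 1 with DESeq2. Over all genes tested 347 of 13533 fell with DESeq2 and 525 of 22446 with no filter on low counts, against 241 in the main fit. Each of the 6 genes named as falling missed the threshold in 3 or 4 of the 4 fits that left out 1 library. The difference between the mitochondrial and nuclear medians was not tested. CT010467.1 and Rn7sk were also lower in the IVS_diosmin libraries, and whether that is linked to the medians was not tested.

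**Figure D5:**
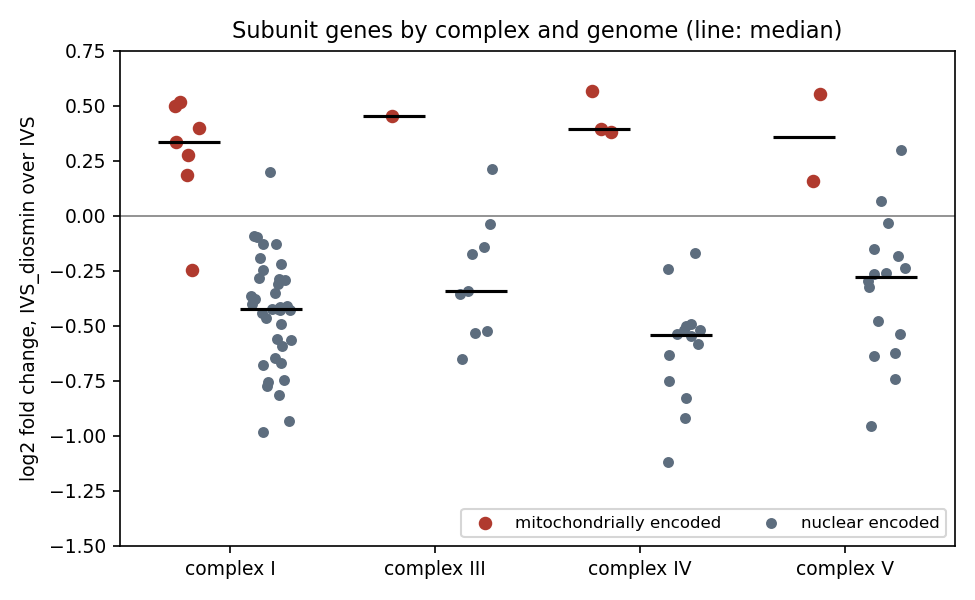
Log2 fold change of IVS_diosmin over IVS for each tested subunit gene of complexes I, III, IV and V, mitochondrially encoded on the left and nuclear encoded on the right of each complex, with the median as a line. The nuclear medians run from -0.54 to -0.28 and the mitochondrial ones from 0.33 to 0.46.

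Genes that make and handle mitochondrial RNA gave few calls. For comparison, 2.96% of all 13533 genes tested passed the threshold, 1.17% higher and 1.78% lower. Of 17 genes of mitochondrial transcription and DNA upkeep none passed (median log2 0.04), the smallest p being that of Tfb2m, the factor that opens mitochondrial promoters, at 24.7 and 34.4 CPM with IVS_diosmin and 17.3 and 17.8 CPM with IVS (log2 0.75 ± 0.23, adjusted p = 0.109). Of 28 RNA processing and stability genes none passed (median 0.14; Hsd17b10, a subunit of the mitochondrial RNase P, log2 -0.63, adjusted p = 0.205). None of 12 translation factors passed (median 0.24; Oxa1l, which inserts mitochondrial products into the inner membrane, log2 0.73, adjusted p = 0.0956), and none of 13 regulators of biogenesis (median 0.12; Esrrg, an estrogen-related receptor, log2 1.79, adjusted p = 0.0991). Of 77 mitochondrial ribosomal protein genes tested 2 fell, Mrpl16 (log2 -1.18) and Mrps28 (log2 -0.92), with a median of -0.15, and neither passed when any 1 library was removed (adjusted p from 0.0887 to 0.202). Of 20 mitochondrial tRNA synthetase genes 1 fell. This was Lars2, which charges the leucine tRNAs, at 584 and 522 CPM with IVS_diosmin and 2006 and 1866 CPM with IVS (log2 -1.81 ± 0.21, adjusted p = 0.00148), and it missed the threshold without IVS_diosmin replicate 1 (0.0562). In the same libraries the nuclear rRNA gene CT010467.1 fell by as much (log2 -1.81, adjusted p = 0.00269), and its part in the Lars2 count was not tested.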

How the data were processed

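Poly(A)-selected RNA was sequenced from semimembranosus muscle. The authors deposited a file of raw gene counts for each library. Per the submitters' processing notes, HISAT2 2.1.0, HTSeq and mm10 were used. The sources used here do not give the HTSeq version, strand setting or annotation release. The 5 summary lines of HTSeq (between 72.3% and 75.1% of all entries in the files) stayed out of library sizes and tests. Symbols, positions and sequences came from GENCODE M21 (GRCm38), where 55141 of 55401 identifiers matched without version.

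Counts were filtered with filterByExpr (13533 genes left), scaled by TMM and tested with edgeR 4.0.16 in R 4.3.3 (quasi-likelihood, robust, IVS_diosmin minus IVS, 2-sided, Benjamini-Hochberg over all genes tested, threshold 0.05); DESeq2 1.42.0 was an alternative. The method was tested on simulated data with the same dispersion for every gene and with changes larger than those of the coding genes here. That test does not cover differences of the size seen in the coding genes. Class shares were compared by exact permutation. Copies were searched with BLAST among annotated transcripts. All mt- genes are accounted for; from each nuclear list the genes past the threshold with the smallest p (at most 4), or else the 1 with the smallest p, are named, and all nuclear copies with 10 counts or more. The members and lists were chosen with earlier results of these data known. Same-numbered replicates did not deviate together (correlation 0.011), so they were not paired. Intervals and floors cover counting error only.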

Additional observations from a re-analysis of the deposited data

Results flagged for a closer look

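Reads aligned to more than 1 place, which enter no gene's count, made up 45.6% of all reads in IVS_diosmin replicate 1 and 43.6% in replicate 2, above the 37.7% and 38.8% of IVS replicates 1 and 2. They are data outside the gene counts in which both IVS_diosmin libraries exceeded both IVS libraries. How many of them came from mitochondrial genes with nuclear copies was not analysed here.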

How the results depend on the processing

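Of the 24 mitochondrial genes tested, 13 kept their direction under all alternatives that gave them a value. The count past the threshold, 1 in the report, was 2 with no filter on low counts (mt-Tn and mt-Ta, mt-Ta at adjusted p = 0.0224), 0 with the replicate block and 0 with DESeq2, which gave mt-Tn no adjusted p, and 0 to 1 when a library was left out, the call then being mt-Atp8 (without IVS_diosmin replicate 2) or mt-Tq (without IVS replicate 1). Over all genes 400 passed, and 919, 93 and 606 under the first 3 of these settings. Leaving out a library gave 38 (IVS_diosmin replicate 1), 266 (IVS_diosmin replicate 2), 366 (IVS replicate 1) and 98 (IVS replicate 2). Same-numbered libraries share only a number, so this pairing is no part of the design; with it mt-Tn had adjusted p = 0.149 and 0 nuclear subunits of complexes I, IV and V fell. Without a scaling factor the median over all genes moved to -0.11, that of the coding genes was 0.29, and mt-Tt turned to -0.022; 115 genes were then higher and 337 lower, against 159 and 241. Adding the chromosome 1 copies turned mt-Nd4l to 0.14. Leaving out 1 library at a time gave log2 fold changes from -0.14 to 0.56 for mt-Rnr1, -0.21 to 0.49 for mt-Rnr2, -0.037 to 1.37 for mt-Tq, -0.078 to 0.87 for mt-Ty, -0.38 to 1.38 for mt-Ts1, -0.40 to 1.11 for mt-Atp8, -0.087 to 0.44 for mt-Atp6, -0.14 to 0.77 for mt-Nd3, -0.057 to 0.46 for mt-Nd5 and -0.30 to 0.38 for mt-Tt. The log2 ratio of the coding share, 0.31 in the report, ran from 0.17 to 0.45 in this way; that of the rRNA share, 0.05, from -0.15 to 0.28; that of the tRNA share, 0.29, from -0.061 to 0.74; and that of mt-Nd6 in coding counts, -0.20, from -0.53 to 0.24. The rRNA share turned to -0.062 over all entries of the files and to -0.042 without the 10 highest genes outside chromosome M. The causes were not tested. With 2 libraries a group, no class share could pass a threshold of 0.05.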
